A study of Mus musculus with 6 samples.

Results

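Axon guidance ligands and receptors were examined in primary mouse renal fibroblasts that had been cultured alone or together with Th17 cells. The genes were chosen by a rule on gene names, with earlier results of these data known. The rule covered semaphorins of classes 3 to 7, plexins, neuropilins, ephrins, Eph receptors, Slits, Robos and netrins. The rule found 63 genes among the 34745 genes of the table, 34 of them ligands and 29 receptors. The RNA came from lone fibroblasts (3 libraries) and from fibroblasts that had shared medium for 24 h (3 libraries) with induced Th17 cells, the helper T cells that make interleukin-17. The Th17 cells sat in a porous insert above the fibroblasts and only the lower chamber was collected. All libraries carried the WT genotype, with fibroblasts grown out of enzyme-digested kidney in a fibroblast medium, and the labels gave neither the age nor the strain of the animals. The lone fibroblasts received no treatment, and no library had an insert with other T cells. The paper mentions neither an empty insert above the lone fibroblasts nor a wash of the Th17 cells after their induction with cytokines. Effects of the Th17 cells, of any cells in an insert, of the insert itself and of carried-over induction medium therefore cannot be told apart. Since the labels left unsaid if the replicates were different animals, cultures or wells, every error and p given here measures variation from library to library, which may be technical.

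Axon guidance genes were named for steering growing nerve fibres, but the same ligands and receptors act between many other cells, including vessels, epithelium and connective tissue. Semaphorins bind plexins, and the secreted class 3 semaphorins mostly do so through neuropilins, which also serve as co-receptors for vascular endothelial growth factors. Ephrins sit on the cell surface and bind Eph receptor tyrosine kinases on neighbouring cells, with signals passing into both cells. Slits are secreted proteins that bind Robo receptors, and netrins are secreted proteins that bind the Dcc and Unc5 receptors.

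Total counts ranged from 12050529 to 13209581 fragments per library, and 3 counts corresponded to 0.223 to 0.254 CPM (counts scaled to a common library size), where the library totals are adjusted by trimmed mean of M values (TMM) factors. Of the 63 guidance genes, 58 had a count in some library and 51 of these passed the filter on low counts, among 13088 genes tested. Fibroblast markers dominated both groups, with a sum over 14 markers of 36063 to 37922 CPM alone and 15960 to 17913 CPM with Th17 cells. Of the 13 fibroblast markers tested, Dcn rose from 504 to 1427 CPM past the threshold given below and 5 fell, among them Col3a1 (−2.18 on the log2 scale), Col1a2 (−1.43) and Col1a1 (−1.27). Markers of other cell types were also measured, because several guidance genes are known from vessels, nerves and immune cells. The sum over 14 endothelial markers was 123 to 132 CPM alone and 273 to 310 CPM cocultured, nearly all of it from Flt1. Of 4 endothelial markers tested, Flt1 was higher (1.31) and Kdr was at least 23.5-fold lower against a floor of 3 counts per library, while Tie1, Emcn, Cldn5 and Erg were at 0 in all libraries. The sum over 10 mural cell markers was 2656 to 2783 CPM alone and 1212 to 1454 CPM cocultured, with 3 of 8 tested markers lower, Des (−2.07) and Mcam (−1.52) among them. The sum over 14 macrophage markers was 63.1 to 67.4 CPM alone and 20.4 to 21.7 CPM cocultured, with 5 of 7 tested lower, led in level by Lyz2 (−3.05). The sum over 11 epithelial markers was 22.9 to 24.9 CPM alone and 8.85 to 10.1 CPM cocultured, with 2 of 5 tested lower, including Krt19 (−2.63). The sum over 10 glial and neural markers was 13.4 to 16.4 CPM alone and 5.65 to 7.23 CPM cocultured, with 2 of 5 tested lower. The sum over 19 T cell markers was 8.61 to 10.3 CPM alone and 5.03 to 6.02 CPM cocultured, with 2 of 3 tested lower (Lck only with lone replicate 2 and cocultured replicate 3 kept, at −0.93 and −0.88 without them), and Cd3d, Il17a, Il17f and Ccr6 were at 0 in all libraries. The part of these markers in the guidance genes was not tested, and in bulk RNA fewer cells of a type and less RNA per cell cannot be told apart.

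Coculture with Th17 cells changed guidance genes in both directions. The threshold was an adjusted p below 0.05 (edgeR's quasi-likelihood test, adjusted over all genes tested) together with more than a doubling or halving. By this rule 7 guidance genes were higher with Th17 cells, namely Sema3a, Sema3c, Sema4f, Sema7a, Epha7, Robo1 and Robo2. These were 13.7% of the 51 tested, where 3.87% of all tested genes were higher in this way. In the other direction 11 guidance genes were lower, namely Sema3b, Sema3f, Sema4a, Sema4d, Efna1, Efnb1, Epha3, Ephb2, Slit3, Ntn1 and Ntn4, or 21.6% of those tested against 7.78% of all genes. With the adjusted p alone, 12 guidance genes were higher (23.5%, against 17.1% of all genes) and 21 were lower (41.2%, against 20.0% of all genes). The CPM ranges of the groups did not overlap in 34 of the 51 (66.7%), where the background over all tested genes was 50.4%. The median log2 fold change, cocultured against alone, was −0.19 over the 51 guidance genes and 0.00 over all tested genes. Among 30 tested ligands 4 were higher and 9 lower, with a median of −0.28, and among 21 tested receptors 3 were higher and 2 lower, with a median of −0.11.

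Because counts grow with transcript length, levels were compared between genes as CPM per kilobase of the longest annotated transcript. On that scale the most abundant guidance transcript of lone fibroblasts was Slit3 (78.8 ± 2.32 CPM per kb, SD, n = 3), followed by the plexin Plxnb2 (62.3 ± 1.55). Efnb2 (29.4 ± 0.361), Plxna1 (28.6 ± 0.651), Nrp1 (27.4 ± 0.696), Efnb1 (27.2 ± 0.598) and Ephb4 (26.8 ± 0.622) came next, and these neighbours in the order lay within 3 CPM per kb of each other. With Th17 cells the order was Plxnb2 (64.2 ± 6.57), Plxna1 (40.4 ± 2.98), Nrp2 (39.0 ± 3.37) and Slit3 (34.6 ± 3.42), where Plxna1 and Nrp2 differed by less than their SDs. Sema3f went from rank 14 to rank 43 of the 63 and Epha3 from 19 to 44, whereas Epha7 went from 49 to 27. The gene length implied by the deposited FPKM was 0.999 to 3.61 times the longest transcript, with a median of 1.65, so the order between genes depends on the length used.

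**Figure D1:**
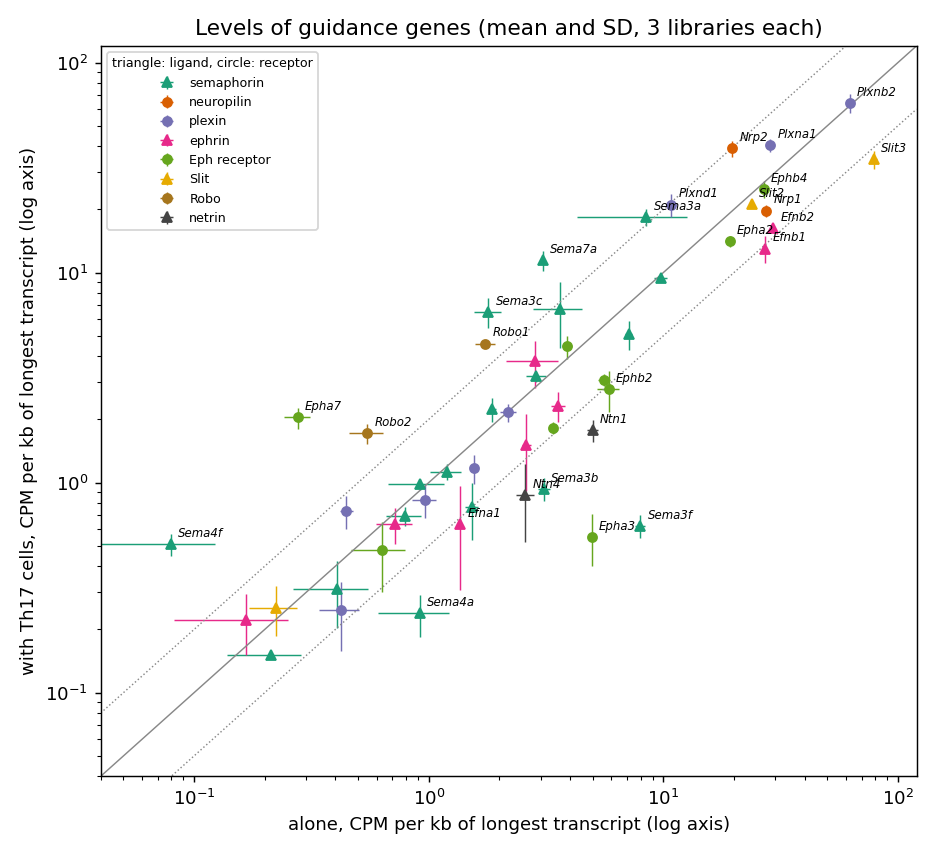
Mean level of each guidance gene in lone fibroblasts (x axis) and in cocultured fibroblasts (y axis), both in CPM per kb of the longest transcript on log axes, with SD over 3 libraries, triangles for ligands and circles for receptors. Genes below 0.05 CPM per kb in either group are not drawn, and the diagonal marks equal levels. Sema3f and Epha3 lie far below the diagonal, while Epha7, Sema4f, Sema7a, Robo1 and Robo2 lie above it.

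Summed over all members, ligands were lower with Th17 cells, at 234.4 ± 3.55 CPM per kb alone and 166.4 ± 8.51 cocultured, while receptors were at 227.3 ± 3.38 and 250.3 ± 18.5, with overlapping libraries (SD, n = 3 each). By family, Slits summed to 102.8 ± 2.35 CPM per kb alone and 56.0 ± 3.94 cocultured, ephrins to 67.8 ± 0.391 and 38.3 ± 2.73, and netrins to 7.59 ± 0.476 and 2.68 ± 0.524. Eph receptors summed to 70.6 ± 1.67 alone and 54.3 ± 2.33 cocultured. Robos summed to 2.34 ± 0.210 alone and 6.32 ± 0.249 cocultured, neuropilins to 47.1 ± 0.983 and 58.8 ± 4.41, plexins to 107.3 ± 0.624 and 130.9 ± 12.1, and semaphorins to 56.2 ± 5.82 and 69.4 ± 2.59. In all 8 families the lone and cocultured libraries did not overlap. Among single tested genes 50.4% had no overlap either, and no such share was computed for sums of other genes. These sums were not tested, and the Slit, ephrin and plexin sums rest largely on their most abundant members.

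**Figure D2:**
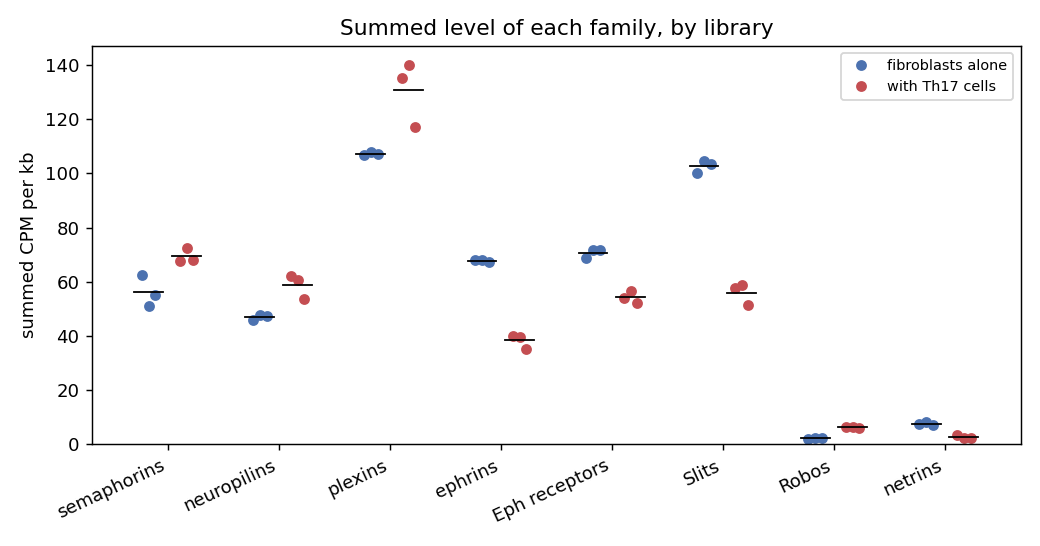
Summed level of each guidance family in each library (y axis, CPM per kb of the longest transcript, 1 point per library, 3 lone and 3 cocultured libraries). Slits, ephrins, Eph receptors and netrins lie lower in the cocultured libraries, while Robos, neuropilins, plexins and semaphorins lie higher.

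Class 3 semaphorins, the secreted members of the family, split in direction. Of 6 tested, 2 rose and 2 fell past the threshold, and Sema3d fell by the adjusted p alone. Sema3f (ENSMUSG00000034684, chromosome 9, 107681500 to 107710475), a ligand that signals mainly through Nrp2, had the largest fall of all guidance genes. Its counts were 348, 328 and 337 alone and 29, 30 and 24 cocultured, or 27.1 ± 1.295 and 2.11 ± 0.268 CPM (log2 fold change −3.68 ± 0.14 SE, adjusted p = 1.19e-07 by edgeR). Every cocultured library thus held far fewer Sema3f counts than any lone library. Sema3b (ENSMUSG00000057969, chromosome 9, 107597674 to 107609229), another secreted ligand, lies 72.27 kb from Sema3f in the annotation and moved the same way. The lone libraries held 145, 127 and 126 counts of Sema3b and the cocultured libraries 37, 43 and 46, or 10.6 ± 0.610 and 3.21 ± 0.402 CPM (log2 fold change −1.73 ± 0.16 SE, adjusted p = 3.27e-05 by edgeR). The groups were well apart in both genes. Sema3d, found on chromosome 5 with 3 other class 3 genes, had 9.60 ± 0.581 CPM alone and 4.81 ± 1.46 cocultured (log2 fold change −0.99 ± 0.21 SE, adjusted p = 0.00595 by edgeR), and its fold change came to lie above 2 when lone replicate 2 (−1.03), cocultured replicate 1 (−1.04) or cocultured replicate 3 (−1.19) was left out.

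Sema3c and Sema3a rose. Sema3c (ENSMUSG00000028780, chromosome 5, 17574281 to 17730268), a ligand known from heart outflow and vessel development, had 132, 107 and 129 counts alone and 549, 373 and 488 cocultured. In CPM this was 9.87 ± 1.27 and 35.7 ± 5.88 (log2 fold change 1.86 ± 0.15 SE, adjusted p = 1.61e-05 by edgeR), with no overlap between groups. Sema3a (ENSMUSG00000028883, chromosome 5, 13125414 to 13602565), the founding repulsive ligand, which signals through Nrp1 and A-type plexins, had 1015, 447 and 433 counts alone and 1541, 1457 and 1287 cocultured. Lone replicate 1 held more than double the Sema3a counts of the other lone libraries, yet fewer than any cocultured library. The mean was 50.2 ± 24.7 CPM alone and 109 ± 9.59 CPM cocultured (log2 fold change 1.12 ± 0.27 SE, adjusted p = 0.0104 by edgeR). The log2 value became 1.60 without lone replicate 1, while without lone replicate 2 (0.92) or lone replicate 3 (0.93) it no longer reached a doubling. Of the 10897 tested genes with a mean above 50 counts in lone fibroblasts, 28 stood out in lone replicate 1. These were more than 1.8 times as high there as in both other lone libraries. The same count was 11 for lone replicate 2 and 29 for lone replicate 3. Among 10870 such genes in the cocultured group it was 17, 21 and 32 for replicates 1 to 3. The ratio of Sema3a to Sema3f counts, chosen after the values were seen and not corrected for length, was 1.28 to 2.92 alone and 48.6 to 53.6 cocultured. Sema3e, the ligand that binds Plxnd1 without a neuropilin, had 12.8 ± 0.449 CPM alone and 15.3 ± 1.95 cocultured, with a 95% interval of −0.03 to 0.54 for its log2 fold change and an adjusted p of 0.142 by edgeR.

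**Figure D3:**
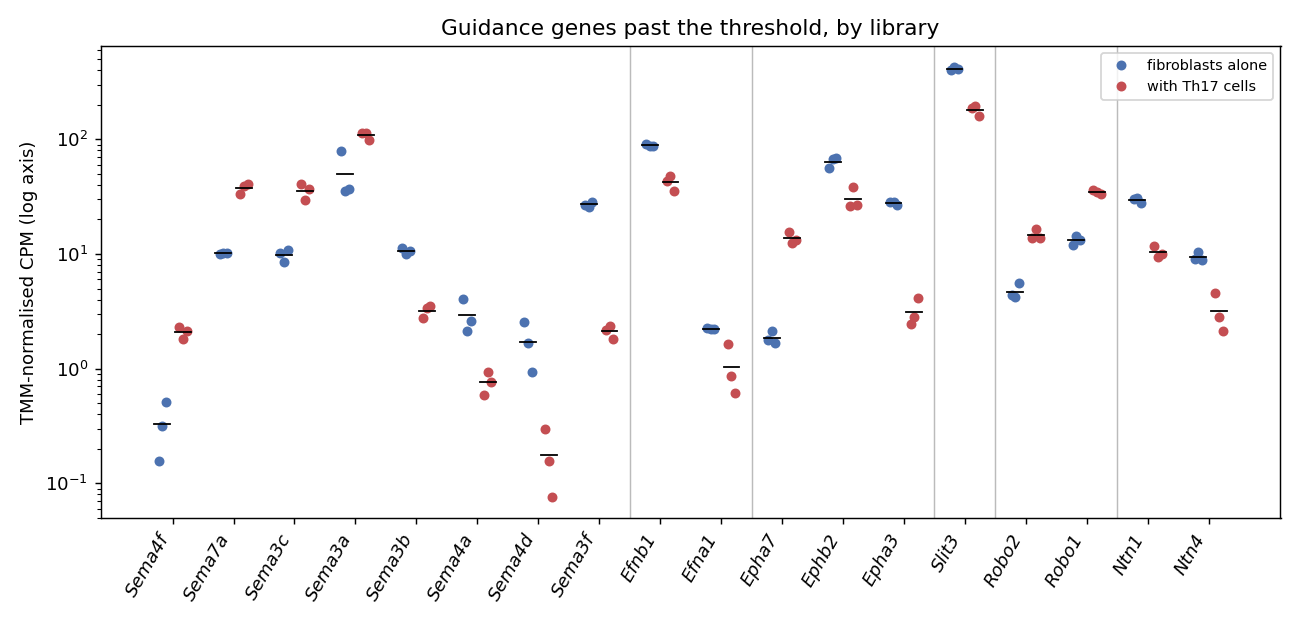
TMM-normalised CPM (log y axis) of the 18 guidance genes past the threshold in each library, with 1 point per library for the 3 lone and 3 cocultured libraries and a horizontal line at each mean. Sema3f, Sema4d and Epha3 show the largest falls, Epha7 and Sema4f the largest rises, and lone replicate 1 stands above the other lone libraries in Sema3a.

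The neuropilins moved in opposite directions, each by less than a doubling or halving. Nrp2, the neuropilin preferred by Sema3f, had 1667, 1742 and 1530 counts alone and 3803, 3393 and 3129 cocultured. In CPM this was 132 ± 4.76 and 262 ± 22.6 (log2 fold change 0.99 ± 0.075 SE, adjusted p = 1e-05 by edgeR), and every cocultured library lay above every lone one. Its fold change of 1.99 stood just below the limit of 2, and it passed when libraries were scaled by total count only (1.05) or when lone replicate 2 (1.02) or cocultured replicate 3 (1.06) was left out. Nrp1, the neuropilin preferred by Sema3a, had 1256, 1265 and 1213 counts alone and 977, 973 and 879 cocultured, or 99.98 ± 2.54 and 71.97 ± 4.82 CPM (log2 fold change −0.47 ± 0.071 SE, adjusted p = 0.000781 by edgeR). Nrp1 thus fell by the adjusted p while Nrp2 rose. Per kb of transcript Nrp1 (27.4 ± 0.696) lay above Nrp2 (19.6 ± 0.708) alone and below it with Th17 cells (19.7 ± 1.32 against 39.0 ± 3.37). By the deposited FPKM the order was the same, with 16.6 ± 0.472 and 9.30 ± 0.331 alone and 12.5 ± 0.755 and 19.3 ± 1.60 cocultured (SD, n = 3).

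Of the 8 tested plexins 3 rose and 1 fell by the adjusted p alone, each by less than a doubling or halving. Plxnd1, a receptor of Sema3e best known from vessels, had 958, 927 and 902 counts alone and 2113, 1982 and 1635 cocultured (log2 fold change 0.97 ± 0.094 SE, adjusted p = 5.03e-05 by edgeR). The groups did not overlap, and the fold change of 1.95 passed 2 when libraries were scaled by total count only (1.03) or without cocultured replicate 3 (1.07). The endothelial markers given above split in direction, with Flt1 higher, Kdr lower and log2 fold changes of 0.10 for Pecam1 (adjusted p = 0.862 by edgeR) and 0.17 for Egfl7 (adjusted p = 0.579 by edgeR), and their part in the Plxnd1 and Nrp2 values was not tested. Plxna1, a partner of neuropilins, had 3417, 3236 and 3010 counts alone and 5117, 4849 and 4392 cocultured (log2 fold change 0.50 ± 0.067 SE, adjusted p = 0.000398 by edgeR). Its annotated exons overlap a gene on the other strand, and whether counting used the strand was not stated. Plxna2 had 4.92 ± 0.312 CPM alone and 8.07 ± 1.42 cocultured (log2 fold change 0.71 ± 0.18 SE, adjusted p = 0.0114 by edgeR). Plxnb1, a receptor of Sema4d, had 13.5 ± 0.498 CPM alone and 10.1 ± 1.63 cocultured (log2 fold change −0.41 ± 0.14 SE, adjusted p = 0.0477 by edgeR), and was past the adjusted p in only 2 of 14 alternatives. Leaving out any library except cocultured replicate 3 ended that call, with values from −0.46 to −0.28. Plxnb2, the second most abundant guidance transcript alone, had 405 ± 10.1 CPM alone and 417 ± 42.7 cocultured, with a 95% interval of −0.13 to 0.22 for the log2 fold change. The intervals of Plxna3 (−0.28 to 0.26) and Plxna4 (−0.58 to 0.14) also held 0. Plxnc1, the receptor of Sema7a, had 41, 31 and 43 counts alone and 23, 32 and 16 cocultured (log2 fold change −0.77, edgeR adjusted p = 0.0765), and was past the threshold only without cocultured replicate 2 (−1.07, adjusted p = 0.0332 by edgeR).

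Among the membrane-bound semaphorins, Sema7a and Sema4f rose and Sema4a and Sema4d fell. Sema7a (ENSMUSG00000038264, chromosome 9, 57940113 to 57962864), which is tethered to the membrane by a lipid anchor and also binds integrins, had 128, 130 and 121 counts alone and 446, 501 and 534 cocultured. In CPM this was 10.1 ± 0.183 and 37.7 ± 3.99 (log2 fold change 1.89 ± 0.11 SE, adjusted p = 1.68e-06 by edgeR), with no overlap between groups. Sema4f (ENSMUSG00000000627, chromosome 6, 82911885 to 82939769), a transmembrane semaphorin, was near the limit of detection alone, with 2, 4 and 6 counts against 31, 23 and 28 cocultured (log2 fold change 2.66 ± 0.40 SE, adjusted p = 0.000748 by edgeR). Sema4d (ENSMUSG00000021451, chromosome 13, 51701246 to 51793747), a ligand of Plxnb1 first known from T cells, fell from 33, 21 and 11 counts alone to 4, 2 and 1 cocultured (log2 fold change −3.21 ± 0.58 SE, adjusted p = 0.00231 by edgeR). Sema4a (ENSMUSG00000028064, chromosome 3, 88435959 to 88461182), which is known from immune cells and the retina, fell from 52, 27 and 31 to 8, 12 and 10 counts (log2 fold change −1.93 ± 0.35 SE, adjusted p = 0.00218 by edgeR). The groups did not overlap in any of these genes, but Sema4f, Sema4d and Sema4a each had under 15 counts in all libraries of 1 group, and they were not retained by a filter of 10 counts in every library. A microRNA gene, Mir7011, overlaps Sema4a on the same strand. The summed macrophage markers, which were lower with Th17 cells as given above, moved in the same direction as Sema4a and Sema4d, and their part in these falls was not tested.

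The other transmembrane semaphorins changed less. Sema6d, a ligand of A-type plexins, had 302, 228 and 343 counts alone and 402, 758 and 532 cocultured (log2 fold change 0.88 ± 0.25 SE, adjusted p = 0.0208 by edgeR). It lost the adjusted p when lone replicate 1 (0.88), lone replicate 2 (0.72) or cocultured replicate 2 (0.59) was left out, and its fold change passed 2 without lone replicate 3 (1.06) or cocultured replicate 1 (1.09). Sema4b, another class 4 semaphorin, had 28.1 ± 0.999 CPM alone and 20.1 ± 3.09 cocultured (log2 fold change −0.48 ± 0.12 SE, adjusted p = 0.0128 by edgeR). Sema4c, a ligand of Plxnb2, had 38.1 ± 2.44 CPM alone and 36.6 ± 1.56 cocultured, with a 95% interval of −0.25 to 0.13. The intervals of Sema4g (−0.12 to 0.42) and Sema5a (−0.41 to 0.24) also held 0. Sema6a, Sema6b and Sema6c were tested below 10 CPM and did not pass.

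Among ephrins and Eph receptors 4 genes fell and 1 rose past the threshold. Of 7 tested ephrins 2 fell past the threshold and 2 more fell by the adjusted p alone. Efnb1 (ENSMUSG00000031217, chromosome X, 99136130 to 99148991), a transmembrane ephrin, had 1169, 1106 and 1033 counts alone and 583, 614 and 469 cocultured, or 88.5 ± 1.95 and 42.4 ± 6.33 CPM (log2 fold change −1.06 ± 0.11 SE, adjusted p = 5.85e-05 by edgeR). The groups were far apart, but the change was close to a halving, and the call ended with scaling by total count only (−0.998) and without cocultured replicate 3 (−0.95). Efnb2, the transmembrane ephrin that marks arteries, had 1806, 1810 and 1654 counts alone and 1036, 963 and 1060 cocultured (log2 fold change −0.86 ± 0.060 SE, adjusted p = 5.42e-06 by edgeR). Ephb4, its main receptor, had 116 ± 2.70 CPM alone and 108 ± 10.1 cocultured, with a 95% interval of −0.28 to 0.07 for the log2 fold change. Ephb4 exons overlap a gene on the other strand. Efna1 (ENSMUSG00000027954, chromosome 3, 89271733 to 89281142), a lipid-anchored ephrin known to respond to inflammatory cytokines in endothelium, had only 29, 28 and 26 counts alone and 22, 11 and 8 cocultured (log2 fold change −1.09 ± 0.35 SE, adjusted p = 0.0387 by edgeR). That call was lost when any library except cocultured replicate 1 was left out, with adjusted p from 0.0893 to 0.115 in edgeR, and with DESeq2 (adjusted p = 0.0679). Efna5, also lipid-anchored, had 14.4 ± 0.968 CPM alone and 9.32 ± 1.51 cocultured (log2 fold change −0.62 ± 0.14 SE, adjusted p = 0.00795 by edgeR). Efna2, Efna3 and Efna4 were tested below 10 CPM and did not pass.

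Epha3 and Epha7, both receptors of A-type ephrins, moved in opposite directions by similar amounts. Epha3 (ENSMUSG00000052504, chromosome 16, 63543538 to 63864158) had 369, 362 and 319 counts alone and 33, 36 and 54 cocultured. In CPM this was 28.1 ± 0.951 and 3.13 ± 0.867 (log2 fold change −3.16 ± 0.17 SE, adjusted p = 1.06e-06 by edgeR). Epha7 (ENSMUSG00000028289, chromosome 4, 28813131 to 28967499) had 23, 27 and 20 counts alone and 209, 159 and 175 cocultured, or 1.87 ± 0.233 and 13.8 ± 1.58 CPM (log2 fold change 2.87 ± 0.17 SE, adjusted p = 2.11e-06 by edgeR). The lowest Epha7 count with Th17 cells was far above the highest alone, and in Epha3 the reverse held. The ratio of Epha7 to Epha3 counts, chosen after the values were seen and not corrected for length, was 0.0623 to 0.0746 alone and 3.24 to 6.33 cocultured. Per kb of transcript, Epha3 was at 4.96 ± 0.168 and Epha7 at 0.277 ± 0.0345 CPM per kb alone, and they were at 0.553 ± 0.153 and 2.04 ± 0.234 cocultured.

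The promoters of these receptors are shown because they had the largest fall and the largest rise among the Eph genes. Each sequence is the 250 bases before the RefSeq start on GRCm38.p6, written 5′ to 3′ on the gene's own strand, at chr16:63864176-63864425 (minus strand) for Epha3 and chr4:28812881-28813130 (plus strand) for Epha7. Capitals mark matches to 6 searched motifs, on either strand: the TEAD core GGAATG, the AP-1 site TGANTCA, the NF-kB site GGGANTTCC, the STAT site TTCNNNGAA, the interferon response core GAAANNGAA and the BMP Smad site GGCGCC.
Epha3: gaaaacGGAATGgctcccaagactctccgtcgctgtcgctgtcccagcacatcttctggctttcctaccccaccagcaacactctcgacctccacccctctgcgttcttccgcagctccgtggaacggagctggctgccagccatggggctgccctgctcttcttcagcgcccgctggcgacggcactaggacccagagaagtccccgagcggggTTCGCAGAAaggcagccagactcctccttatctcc
Epha7: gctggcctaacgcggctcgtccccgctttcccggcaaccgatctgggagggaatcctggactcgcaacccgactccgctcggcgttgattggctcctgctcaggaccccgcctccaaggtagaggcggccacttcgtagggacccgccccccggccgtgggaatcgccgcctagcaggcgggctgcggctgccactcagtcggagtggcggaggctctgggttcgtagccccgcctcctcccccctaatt
The Epha3 window held a TEAD core 244 to 239 bases and a STAT match 35 to 27 bases before the start, while no motif matched in the Epha7 window. Of all 32851 RefSeq windows of this length, 12.6% held the TEAD core, 7.02% the STAT site, 6.75% the AP-1 site, 1.43% the NF-kB site, 7.13% the interferon response core and 9.59% the BMP Smad site. A RefSeq window was found for 15 of the 18 genes past the threshold, but not for Sema3b, Sema3f and Ntn1. The RefSeq starts used for Sema3a and Sema4d lay 271370 and 37064 bases from the 5′ ends of the gene positions given here. The only other match among the 15 windows was a BMP Smad site in Sema3c, 90 to 85 bases before its start. G and C made up 62.8% of the Epha3 window and 69.2% of the Epha7 window, against a median of 52.4% over all windows.

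Ephb2 (ENSMUSG00000028664, chromosome 4, 136647539 to 136835988), a receptor of B-type ephrins, was the third Eph gene past the threshold. It had 724, 845 and 812 counts alone and 354, 485 and 351 cocultured, or 63.9 ± 6.71 and 30.4 ± 6.69 CPM (log2 fold change −1.07 ± 0.15 SE, adjusted p = 0.000478 by edgeR). Cocultured replicate 2 held the most Ephb2 of the cocultured libraries, still below every lone library. The fold change fell below 2 without cocultured replicate 1 (−0.98) or cocultured replicate 3 (−0.99). Epha1, Epha2 and Ephb3 fell by the adjusted p alone. Epha2, the main receptor of Efna1, had 75.1 ± 3.57 CPM alone and 55.3 ± 3.26 cocultured (log2 fold change −0.44 ± 0.076 SE, adjusted p = 0.00169 by edgeR). Ephb3, like Ephb2 a receptor of B-type ephrins, had 16.1 ± 0.578 CPM alone and 8.67 ± 0.602 cocultured (log2 fold change −0.89 ± 0.11 SE, adjusted p = 0.000313 by edgeR). Epha1, which shares exonic positions with Zyx on the other strand, had 18.4 ± 1.04 CPM alone and 10.1 ± 0.661 cocultured (log2 fold change −0.87 ± 0.11 SE, adjusted p = 0.000308 by edgeR). Since the strand used in counting was not stated, a part of the Epha1 counts from Zyx was not tested. Epha4, a receptor that binds ephrins of both types, had 24.6 ± 1.22 CPM alone and 28.2 ± 3.49 cocultured, with a 95% interval of −0.05 to 0.44. Ephb6, an Eph protein without kinase activity, was tested below 10 CPM and did not pass.

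In the Slit and Robo system the most abundant ligand fell while both tested receptors rose. Slit3 (ENSMUSG00000056427, chromosome 11, 35121224 to 35708507), a secreted ligand made by stromal and mural cells, had 5146, 5362 and 4884 counts alone and 2547, 2462 and 2111 cocultured. In CPM this was 412 ± 12.1 and 181 ± 17.9 (log2 fold change −1.19 ± 0.078 SE, adjusted p = 3.87e-06 by edgeR), with the groups far apart. The summed mural cell markers, given above, were also lower with Th17 cells, and most of that difference came from Des (1313 to 312 CPM). By the adjusted p alone 7 of the 8 tested mural markers were lower, with Myh11 at only −0.30 on the log2 scale. Cspg4 was slightly higher (139 to 157 CPM, edgeR adjusted p = 0.110). The part of these markers in the Slit3 fall was not tested. Slit2, the best studied ligand of Robo1, had 3027, 2944 and 2874 counts alone and 2857, 2726 and 2689 cocultured (log2 fold change −0.17 ± 0.055 SE, adjusted p = 0.0383 by edgeR). That small difference was past the adjusted p in only 3 of 14 alternatives and in none of the 6 that left out a library, where the log2 fold change was −0.18 to −0.15. Slit1 was tested below 10 CPM and did not pass. Per kb of transcript Slit3 was at 78.8 ± 2.32 and Slit2 at 23.8 ± 0.548 CPM per kb alone, against 34.6 ± 3.42 and 21.1 ± 0.513 cocultured, but the length implied for Slit2 by the deposited FPKM was 3.61 times its longest transcript.

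Robo1 (ENSMUSG00000022883, chromosome 16, 72663149 to 73046095), the receptor through which Slits repel growing axons and migrating cells, had 154, 183 and 156 counts alone and 486, 442 and 437 cocultured. In CPM this was 13.2 ± 1.25 and 34.7 ± 1.45 (log2 fold change 1.39 ± 0.10 SE, adjusted p = 8.11e-06 by edgeR). Robo2 (ENSMUSG00000052516, chromosome 16, 73892306 to 74411825), a related receptor needed in kidney development, had 56, 53 and 66 counts alone and 185, 212 and 183 cocultured, or 4.70 ± 0.762 and 14.8 ± 1.63 CPM (log2 fold change 1.65 ± 0.16 SE, adjusted p = 4.85e-05 by edgeR). Neither gene had overlapping groups, but limma on log2(FPKM + 1) put the Robo2 change at 0.46, under a doubling. Robo1 and Robo2 lie 846.2 kb apart on chromosome 16, on opposite strands and transcribed towards each other. Their promoter windows are shown because both genes rose. They cover chr16:72662899-72663148 (plus strand) and chr16:74411826-74412075 (minus strand) on GRCm38.p6, again as the 250 bases before the RefSeq start, and neither held a match to the 6 motifs.
Robo1: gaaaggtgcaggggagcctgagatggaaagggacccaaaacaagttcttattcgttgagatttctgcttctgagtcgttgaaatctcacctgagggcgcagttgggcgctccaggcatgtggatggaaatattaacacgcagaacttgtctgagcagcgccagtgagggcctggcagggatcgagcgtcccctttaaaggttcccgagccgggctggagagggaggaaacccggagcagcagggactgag
Robo2: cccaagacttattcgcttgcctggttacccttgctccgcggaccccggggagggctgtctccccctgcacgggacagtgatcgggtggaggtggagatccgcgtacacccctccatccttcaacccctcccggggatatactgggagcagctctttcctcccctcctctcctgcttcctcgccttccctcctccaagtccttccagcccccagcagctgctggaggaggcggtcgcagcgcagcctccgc
G and C made up 56.0% of the Robo1 window and 65.6% of the Robo2 window.

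Both tested netrins fell. Ntn1 (ENSMUSG00000020902, chromosome 11, 68209364 to 68400823), the secreted ligand of Dcc and the Unc5 receptors, had 385, 389 and 327 counts alone and 159, 120 and 132 cocultured, or 29.4 ± 1.59 and 10.4 ± 1.24 CPM (log2 fold change −1.49 ± 0.12 SE, adjusted p = 1.13e-05 by edgeR). Ntn4 (ENSMUSG00000020019, chromosome 10, 93640681 to 93747207), a netrin that binds laminin in basement membranes, had 117, 131 and 104 counts alone and 62, 36 and 28 cocultured, or 9.41 ± 0.828 and 3.19 ± 1.28 CPM (log2 fold change −1.55 ± 0.25 SE, adjusted p = 0.00118 by edgeR). The groups did not overlap in either gene, although cocultured replicate 1 held more than double the Ntn4 counts of cocultured replicate 3. Among 11 netrin receptors and co-factors, 5 of which were tested, Unc5c fell and Unc5d rose past the threshold. The most abundant by CPM, Unc5b and Neo1, changed less. Unc5b had 258 ± 1.92 CPM alone and 219 ± 10.7 cocultured (log2 fold change −0.24, edgeR adjusted p = 0.0117). Neo1 had 128 ± 4.44 and 115 ± 9.65 CPM (−0.14, edgeR adjusted p = 0.166). Unc5c, a repulsive netrin receptor, had 414, 391 and 395 counts alone and 189, 193 and 79 cocultured (log2 fold change −1.45, edgeR adjusted p = 0.00251). Unc5d, a low gene named after its values were seen, had 22, 17 and 16 counts alone and 71, 64 and 41 cocultured (1.60, edgeR adjusted p = 0.00163). Dcc was at 0 in all libraries, which allows up to 0.223 to 0.254 CPM per library by counting error alone.

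**Figure D4:**
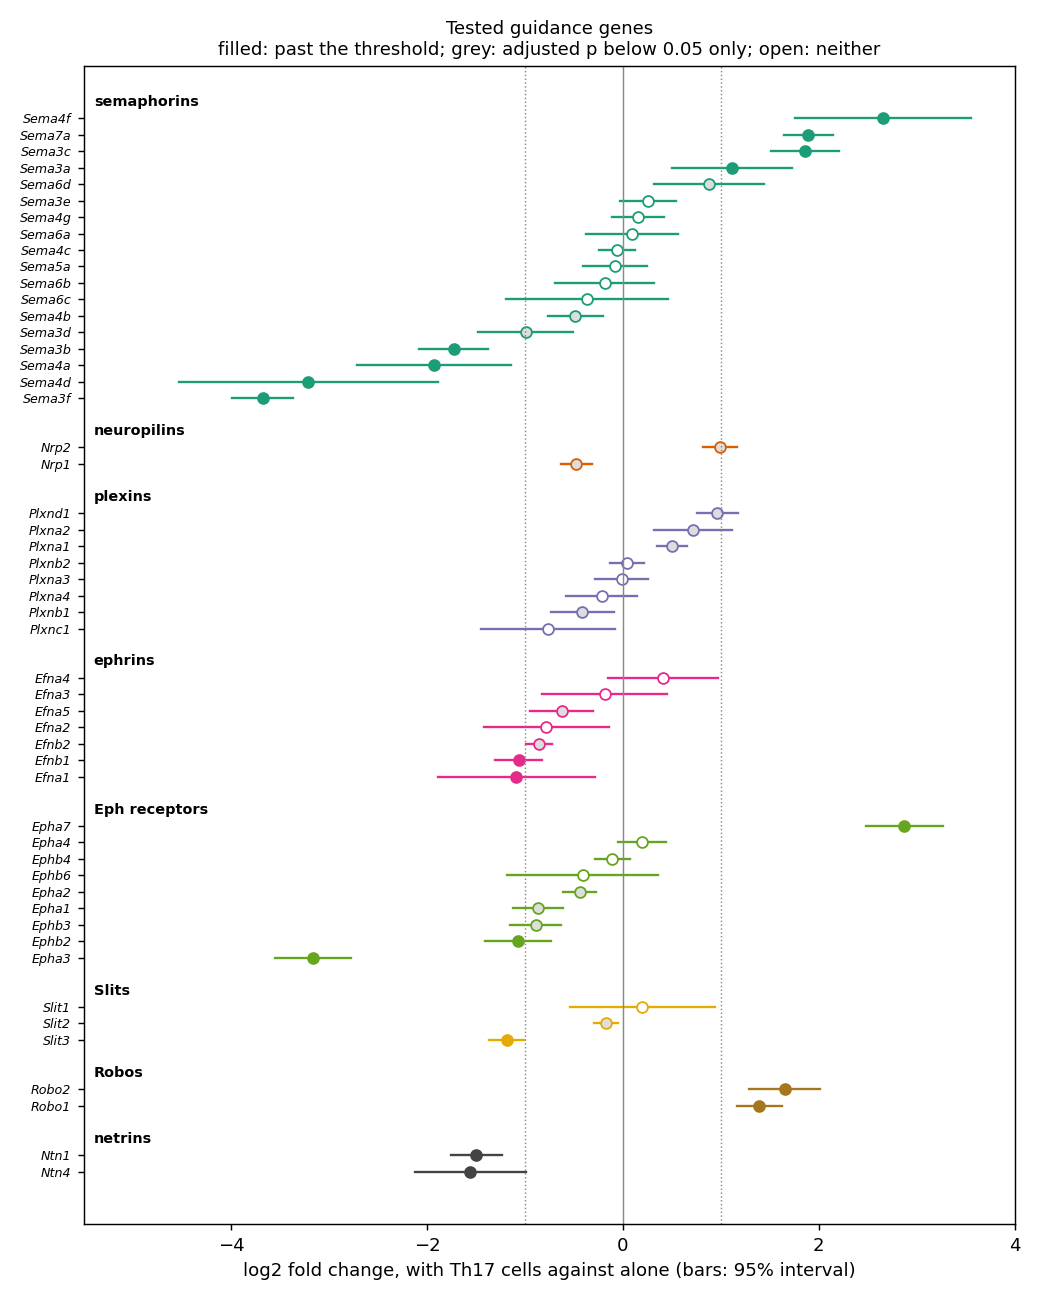
Log2 fold change of each tested guidance gene, cocultured against alone (x axis, with 95% intervals), grouped by family along the y axis. Filled points are past the threshold, grey points are past the adjusted p only, and open points are past neither. The plexin points lie within 1 log2 unit of 0, while semaphorins and Eph receptors have points far out on both sides.

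Partners and signal carriers around these families were counted from lists of known genes that hold no guidance gene of the rule. Of 91 such genes found, 74 were tested, and 3 were higher (4.05%, against 3.87% of all genes) and 8 lower (10.8%, against 7.78%) past the threshold. These shares, at the threshold with its fold limit, lie near those of all tested genes. With the adjusted p alone, 17.1% of all genes were higher and 20.0% lower. By that rule 2 were higher and 9 lower of 22 semaphorin and plexin effectors, and 2 and 6 of 20 ephrin and Eph effectors. Of 17 Slit and Robo effectors 2 were higher and 4 lower, of 8 semaphorin co-receptors 1 and 3, and of 5 netrin partners 2 and 2. In each of these lists the share lower by the adjusted p lay above that of all genes, but the lists are small and were not tested as lists. Neither of the 2 tested repulsive guidance molecules passed. Among semaphorin co-receptors (8 tested) the adhesion molecule Nrcam rose from 5.38 ± 0.998 to 24.9 ± 1.08 CPM (log2 fold change 2.20, edgeR adjusted p = 3.33e-06) and the integrin subunit Itga1 fell from 35.7 ± 2.75 to 16.7 ± 1.71 CPM (−1.09, edgeR adjusted p = 5.85e-05). Among 22 tested semaphorin and plexin effectors the only gene past the threshold was Rnd1, which binds plexins and which fell from 68.1 ± 2.16 to 28.4 ± 3.20 CPM (−1.27, edgeR adjusted p = 8.02e-06). Among 20 tested ephrin and Eph effectors the Rac activator Tiam1 rose from 23.4 ± 0.951 to 50.2 ± 9.29 CPM (1.10, edgeR adjusted p = 0.000213), and 3 genes below 10 CPM fell, Chn2, Sla and Arap3, named after their values were seen. Tiam1 no longer reached a doubling without cocultured replicate 1 (0.99). The Arap3 call ended without any 1 of the libraries (−1.65 to −0.99), and the Sla call without any except lone replicate 3 (−1.19 to −0.81). Among 17 tested Slit and Robo effectors Flrt2, a membrane protein that also binds Unc5 receptors, fell from 175 ± 9.91 to 55.8 ± 5.40 CPM (−1.65, edgeR adjusted p = 7.9e-07), and so did Cables1 at a low level, which was likewise named afterwards. The median log2 fold change of the 6 lists lay between −0.15 and 0.00, the latter over 2 tested repulsive guidance molecules.

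The remaining 12 guidance genes were left out of the main test because their counts were too low. Epha6, Epha8, Epha10, Plxnb3 and Robo4 had no count in any library, which allows up to 0.223 to 0.254 CPM per library by counting error alone. Robo4 is known mainly from endothelium. Ephb1 had 1 count in 1 library and Ntn5 had 2 counts in 1 library. Epha5, Robo3 and Sema5b had between 0 and 7 counts per library. Efnb3 had 7, 10 and 3 counts alone and 13, 8 and 7 cocultured, and Sema3g, an endothelial class 3 semaphorin, had 9, 17 and 10 alone and 9, 9 and 9 cocultured. The alternative with no filter on low counts tested those with a count in some library, and none of them was past the threshold there.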

How the data were processed

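RNA of 3 lone and 3 cocultured fibroblast libraries was sequenced (Illumina NovaSeq). Reads were filtered by the authors with Seqtk, and the submitters' processing notes name HISAT2 2.0.4, StringTie 1.3.3b and the build mm10. The deposited table held raw fragment counts per gene, and the authors deposited FPKM values (scaled to gene length and library total) beside them. How strand and multiply mapped fragments were counted was not stated.

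Gene identity, position and exon overlap came from GENCODE M21 (34267 identifiers matched, 99.9% at the annotated position). Exons of 12 guidance genes, Plxnb1 and Sema4c among them, overlap a gene on the other strand, and exons of 3 overlap a gene on the same strand. The test was edgeR 4.0.16 under R 4.3.3: filterByExpr (minimum count 10), TMM, glmQLFit and glmQLFTest on the whole table with Benjamini-Hochberg adjustment over 13088 genes. The common dispersion (0.0136) equals 11.6% variation between replicate libraries. SE is the log2 fold change over the square root of F. CPM used TMM library sizes. Intervals (95%) of log2 fold changes are from the fit, and floors (3 counts) cover counting error only.

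The guidance genes and the lists of partners and markers were chosen with earlier results of these data known. Genes past the threshold are described by library, those past the adjusted p alone by log2 fold change, and others by name at 10 CPM or more; list genes past the threshold are named at 10 CPM or more. Alternatives were DESeq2 1.42.0, 3 other scalings, 2 other filters, glmTreat, a replicate block, limma 3.58.1 on log2(FPKM + 1) and leaving out each library. On simulated counts for this comparison (13088 genes, 200 changed by 1.5 on the log2 scale), edgeR recovered 99.5% with 1 unchanged gene called, DESeq2 99.5% with 0 and limma 80.0% with 0. The changed genes were drawn only from those with a mean above 50 counts, and all genes were given the common dispersion. The simulation therefore did not cover changed genes with few counts or with changes near a doubling. Tables and figures used pandas 2.3.3 and matplotlib 3.10.9 in Python 3.11.15. Promoter sequences are from RefSeq, on GRCm38.p6, with a window for 55 of the 63 guidance genes.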

Additional observations from a re-analysis of the deposited data

How the results depend on the processing

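No guidance gene past the adjusted p reversed its direction under any alternative. With limma on log2(FPKM + 1) 8 guidance genes were past the threshold (4 higher and 4 lower), 3 partner genes were, and the median log2 fold change of the guidance genes was −0.050; a pseudocount of 1 shrinks the change of low genes. The calls lost there were Efna1, Efnb1, Epha7, Ephb2, Ntn4, Robo2, Sema3b, Sema4a, Sema4d and Sema4f. Under glmTreat, whose null is a doubling, 11 guidance genes (5 lower) and 5 partner genes were called. The guidance genes not called by glmTreat were Efna1, Efnb1, Ephb2, Ntn4, Sema3a, Sema4a and Slit3, so their changes were not shown to exceed a doubling or halving. A filter of 10 counts in every library left 7 partner genes and 14 guidance genes. Leaving out libraries moved the median between −0.25 (lone replicate 3 left out) and −0.13 (cocultured replicate 3 left out), and the number past the threshold between 17 and 19. Scaling by library size only moved the median of all genes to 0.07. The labels number the libraries of both groups 1 to 3, but same-numbered libraries did not deviate together (correlations of 0.016, −0.026 and −0.004 over genes), and with the replicate number as a block 18 guidance genes were called, 17 of them shared, with Efna1 lost and Sema3d gained. Depth limits the genes with few counts in a group, such as Sema4f alone and Sema4d cocultured, whose log2 fold changes had the largest SEs among the called guidance genes (0.40 and 0.58).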

Other observations

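The neuropilins share ligands with the receptors of vascular endothelial growth factors. Of those receptors only Flt1 and Kdr, which were on the endothelial marker list, were read out beside the neuropilins, after the values had been seen. Flt1, a receptor that binds such growth factors, had 1453, 1533 and 1383 counts alone and 4067, 3857 and 3513 cocultured, or 117 ± 4.17 and 291 ± 20.5 CPM (log2 fold change 1.31, edgeR adjusted p = 9.75e-07). Kdr, the main signalling receptor of that family in endothelium, had 65, 74 and 68 counts alone and 2, 1 and 2 cocultured, so it was at least 23.5-fold lower in the cocultured group when 3 counts per library were taken as the floor. The other endothelial markers stayed low, with Tie1, Emcn, Cldn5 and Erg at 0 in all libraries.

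Class 3 semaphorin genes on the same chromosome did not always move together. Sema3b and Sema3f on chromosome 9 both fell. On chromosome 5 Sema3d fell by the adjusted p alone, Sema3a rose 536.5 kb away, and Sema3e passed neither rule a further 422.7 kb away. Sema3c, which rose, lies much farther off, 3318 kb beyond Sema3e. The ratio of Efnb2 to Ephb4 counts, which is not corrected for length, was 1.19 to 1.24 alone and 0.648 to 0.832 cocultured. Robo1 and Robo2 kept overlapping count ratios, at 2.36 to 3.45 alone and 2.08 to 2.63 cocultured. These pairs were chosen after the values were seen and were not tested.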
